A study of Danio rerio with 184 samples.

Results

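The genes fndc7a (ENSDARG00000077096), slc1a3a (ENSDARG00000104431) and lfng (ENSDARG00000037879) were followed cell by cell in hair cells sorted from zebrafish larvae. They are 3 of the 12355 gene rows of the count table and were named by their Ensembl identifiers. They had been picked as support cell genes whose summed counts were higher in mutant-labelled than in wild-type cells of these same data. That difference is therefore given below as a description. The questions were in how many sorted cells each gene was seen, whether the same cells carried them, and how much hair cell RNA those cells held.

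The study sorted neuromast hair cells from the dissociated trunks of larvae 6 days after fertilization and made mcSCRB-seq libraries, in which molecules are counted by unique molecular identifiers (UMIs). The mutant cells came from larvae with the genotype Tg[myo6b:actb1-EGFP]_Emx2-mutant and the others from wild-type larvae with the same Tg[myo6b:actb1-EGFP] reporter. The myo6b promoter of this transgene is used to drive expression in hair cells, and all cells of both genotypes were sorted on its green fluorescence. The mutant allele is not described in the labels, and no animal, pool or clutch is named, so each genotype counts as 1 sample and no test between genotypes was possible.

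Each genotype had 92 cells, 46 on plate 2 and 46 on plate 4, the plate being the first digit of the well code. After leaving out 2 wild-type cells of plate 4 with fewer than 1000 UMIs, 92 mutant-labelled and 90 wild-type cells remained, with 545364 and 537512 UMIs. A cell held between 1000 and 33325 UMIs, with a median of 7194 on plate 2 and 3590 on plate 4, so that a low gene was seen more readily on plate 2. The 184 cell barcodes were all distinct. The hair cell marker list made up 2776 of every 10000 UMIs outside the 5 cells described below. The emx2 gene itself had 105 UMIs in 39 mutant-labelled cells and 45 UMIs in 36 wild-type cells. As the position of the lesion is not given, this count does not check the labels, and cells are called mutant-labelled throughout.

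Neuromasts are small sensory organs in which mechanosensory hair cells stand among support cells, which surround them and can give rise to new hair cells. Notch signalling between neighbouring cells sets which cells become hair cells, and in zebrafish it also acts on Emx2, a transcription factor that sets the direction in which a hair bundle points. The product of lfng is a Fringe glycosyltransferase that modifies Notch receptors, and its mouse counterpart is expressed in cochlear supporting cells. The product of slc1a3a is a glutamate and aspartate transporter whose mammalian counterpart is found in glia and in cochlear supporting cells. The product of fndc7a carries fibronectin type III domains, and its role is little described.

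All 3 genes were rare in the sorted cells. The transporter gene slc1a3a was seen most widely, with 108 UMIs in 56 of 182 cells. Of the 92 mutant-labelled cells 30 had a UMI of it, or 32.6% (exact 95% interval 23.2 to 43.2), and of the 90 wild-type cells 26, or 28.9% (19.8 to 39.4). On plate 2 it was seen in 15 of 46 cells of each genotype. On plate 4 it was seen in 15 of 46 cells with the mutant label and in 11 of 44 wild-type ones. Thus slc1a3a was about as widely spread in both genotypes, and the intervals overlap broadly. Its levels per cell were uneven. Most carriers held 1 UMI (43 cells) or 2 UMIs (7 cells), 1 cell held 4, and 5 cells held 8, 8, 9, 9 and 13.

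The gene fndc7a had 67 UMIs in 31 cells, of which 22 were mutant-labelled (23.9%, 15.6 to 33.9) and 9 wild-type (10%, 4.68 to 18.1). On plate 2 there were 17 mutant-labelled and 8 wild-type carriers, and on plate 4 there were 5 and 1. Of the 31 carriers, 19 held 1 UMI, 6 held 2 and 6 held 3 or more. In mutant-labelled cells the levels ran from 0 through a median of 0 to 13 UMIs, and in wild-type cells from 0 through a median of 0 to 3 UMIs. The groups overlapped, as 70 mutant-labelled and 81 wild-type cells held none.

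The Notch modifier gene lfng was the rarest, with 37 UMIs in 17 cells. It was seen in 13 mutant-labelled (14.1%, 7.74 to 22.9) and 4 wild-type cells (4.44%, 1.22 to 10.99). Both plates had more mutant-labelled carriers, with 6 against 3 on plate 2 and 7 against 1 on plate 4. Of the 37 UMIs, 17 came from a single cell, well 4E5 of the mutant-labelled group, and no other cell held more than 2. In wild-type cells the highest level was 2 UMIs.

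Since detection depends on depth, every cell with at least 2000 UMIs was also thinned to 2000. Carriers of slc1a3a were then 14 of 89 among the mutant-labelled (15.7%, 8.87 to 24.98) and 15 of 88 among the wild type (17.05%, 9.87 to 26.6). For fndc7a it was 9 of 89 and 4 of 88 cells (10.1% and 4.55%), and for lfng 5 of 89 and 2 of 88 (5.62% and 2.27%). This is 1 random thinning. Over 100 thinnings the mean share for slc1a3a was 15.08% with the mutant label, against 13.18% in wild type, and in the same order it was 10.3% and 4.59% for fndc7a and 7% and 1.66% for lfng. The order of the genotypes was thus not settled for slc1a3a at this depth, and for fndc7a and lfng the mutant-labelled share was higher with overlapping intervals. All intervals here cover counting error only. No cell type that should lack these genes was measured, so the share that free RNA alone would give is unknown, and a carrier is a cell with a UMI and not shown to be a cell expressing the gene.

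**Figure D1:**
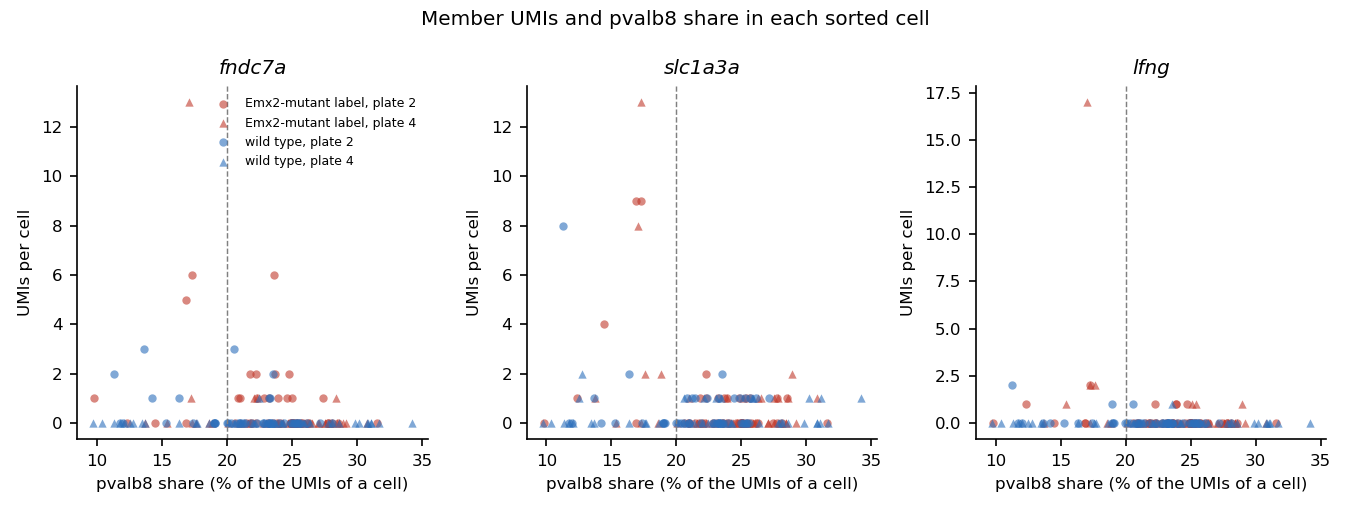
UMIs of fndc7a, slc1a3a and lfng per cell (vertical axes) against the share of pvalb8 in the UMIs of that cell in percent (horizontal axes), 1 point per cell for 182 cells, with colour for genotype, shape for plate and a dashed line at 20%. The 5 cells with 8 or more slc1a3a UMIs lie left of the line, and most carriers of 1 or 2 UMIs lie right of it.

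Few cells held more than 1 of the genes, each of which was itself rare. The number of shared cells that unlinked detection of the genes would give is not given here. No member was seen in 104 cells, exactly 1 in 57, exactly 2 in 16 and all 3 in 5 cells. At least 2 members were found together in 15 mutant-labelled cells, 16.3% of 92 (9.42 to 25.5), and in 6 wild-type cells, 6.67% of 90 (2.49 to 13.9). All 3 were seen in 4 mutant-labelled cells and 1 wild-type cell. None of the 44 wild-type cells of plate 4 held more than 1 member, where a count of 0 has an exact 95% upper bound of 8.04%. The most common sets were slc1a3a alone with 38 cells and fndc7a alone with 15 cells, whereas lfng alone was seen in 4 cells.

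**Figure D2:**
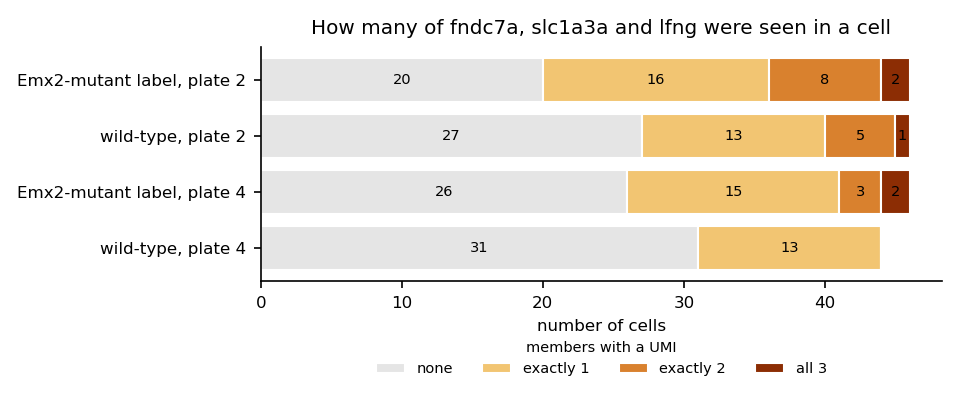
Number of cells (horizontal axis) in which none, exactly 1, exactly 2 or all 3 of fndc7a, slc1a3a and lfng had a UMI, 1 bar per genotype and plate. All 3 were seen in 2 mutant-labelled cells of each plate and in 1 wild-type cell of plate 2, and the wild-type cells of plate 4 held at most 1 of the genes.

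The transporter gene was not clearly tied to fndc7a. It was seen in 13 of 31 fndc7a carriers (41.9%, 24.5 to 60.9) and in 43 of 151 other cells (28.5%, 21.4 to 36.4), and the 13 shared cells are 23.2% of the 56 slc1a3a carriers. Over both genotypes the overlap with lfng was larger. Of the 17 lfng carriers 8 carried fndc7a (47.1%, 22.98 to 72.2), against 23 of the 165 other cells (13.9%, 9.05 to 20.2). Of the same 17 cells 10 carried slc1a3a (58.8%, 32.9 to 81.6), against 46 of the 165 others (27.9%, 21.2 to 35.4). Among mutant-labelled cells this was 9 of 13 lfng carriers against 21 of 79 others. In wild type it was 1 of 4 against 25 of 86. For fndc7a it was 6 of 13 against 16 of 79, and in wild type 2 of 4 against 7 of 86. On plate 2 slc1a3a was in 5 of 9 lfng carriers and 25 of 83 others, on plate 4 in 5 of 8 and 21 of 82. For fndc7a it was 6 of 9 and 19 of 83, then 2 of 8 and 4 of 82. Carriers of fndc7a and slc1a3a were deeper than other cells, with medians of 7398 against 4482 UMIs and 6090 against 4519 UMIs. For lfng carriers it was 6068 against 4847 UMIs, but 6676 against 7211 on plate 2 alone. Depth thus moved with joint detection, and the counts were repeated at equal depth. After thinning to 2000 UMIs, 3 of 7 lfng carriers held fndc7a, against 10 of 170 other cells. The same 3 of 7 count was found for slc1a3a, against 26 of 170 other cells. How often lfng carriers held other genes of like abundance is not given here.

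These overlaps rested in part on the 5 cells with 8 or more slc1a3a UMIs. They were singled out after their values were seen and are called slc1a3a-rich. The bar was set at the gap between the cell with 4 UMIs (well 2C3, mutant-labelled, no fndc7a or lfng) and the cells with 8. It counts raw UMIs, which favours deep cells, and the 5 cells had a median of 11266 UMIs, against 5000.5 over all cells. Per 10000 UMIs their slc1a3a level was 7.10 to 16.6, and the highest other cell had 5.38. Thinned to 2000 UMIs in 1 random draw, 3 of the 5 held slc1a3a, 2 fndc7a and 1 lfng, against 26, 11 and 6 of 172 others. Such counts vary with draw and depth. At 1000 UMIs lfng was in 3 of the 5 and 2 of 177 others, and at 5000 in 4 of the 5 and 5 of 86 others. Without the slc1a3a-rich cells, slc1a3a was seen in 8 of 26 fndc7a carriers (30.8%) and 43 of 151 other cells (28.5%). As all 5 carry both genes and were set aside for their slc1a3a level, a lower share was bound to follow, and it is given only as a description of the remaining cells. The share of lfng carriers with fndc7a was then 4 of 13 (30.8%), against 22 of 164 others (13.4%). The share with slc1a3a was 6 of 13 (46.2%), against 45 of 164 others (27.4%). As 4 of the 5 slc1a3a-rich cells carry all 3 genes, lower shares were bound to follow for the lfng carriers too. Of the 5 cells with all 3 genes, 4 were slc1a3a-rich. The other, well 2F5 of the mutant-labelled group, held 2 fndc7a, 2 slc1a3a and 1 lfng UMIs.

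The gene pvalb8, which encodes a calcium buffer of the parvalbumin family, was the most abundant hair cell transcript, with a median share of 24.5% in mutant-labelled cells, against 22.9% in wild type. Carriers of slc1a3a had a median share of 23.5% (range 11.3 to 34.2), the same as the 23.5% of other cells, a difference of 0.021 percentage points. Carriers of fndc7a had 22.3% (9.79 to 28.4) and other cells 23.9%, a difference of -1.63 points. Carriers of lfng had 20.6% (11.3 to 28.9) and other cells 23.6%, a difference of -2.99 points. The same difference was taken for all 5258 genes with at least 10 carrying and 10 other cells, and it had a median of -0.42 points. A difference of -2 points or lower, met by lfng alone among the 3 genes, was found for 9.81% of all genes. Of all genes, 17.5% lay at or below fndc7a, 69.8% at or below slc1a3a and 3.04% at or below lfng.

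**Figure D3:**
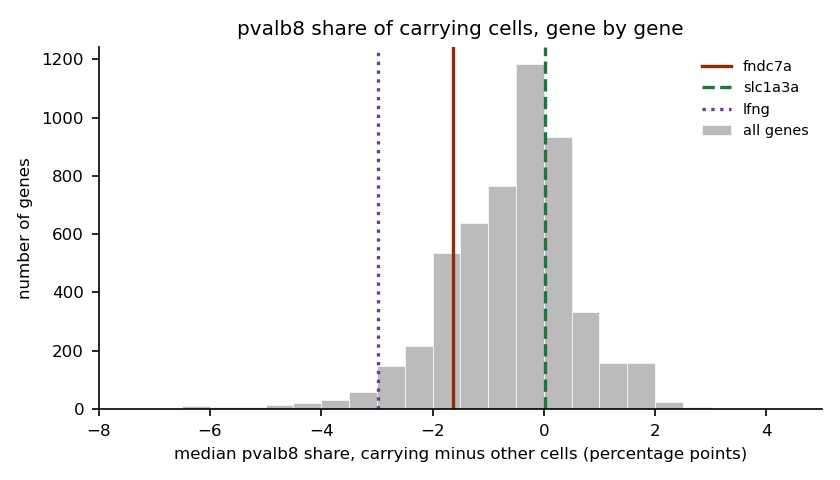
Number of genes (vertical axis) by the median pvalb8 share of the cells carrying a gene minus that of the other cells, in percentage points (horizontal axis), for 5258 genes in grey, with lines for fndc7a, slc1a3a and lfng. The slc1a3a line stands at 0.021, fndc7a at -1.63 and lfng at -2.99, where 3.04% of genes lie at or below.

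Without thinning, the fndc7a carriers lay further below the other cells within each genotype than over both. The median pvalb8 share was 22.3% among 22 mutant-labelled carriers, against 25.01% in 70 other mutant-labelled cells, a difference of -2.71 points. In wild type it was 20.6% in 9 carriers and 23.02% in 81 other cells, a difference of -2.45 points. The share of all genes with such differences within a genotype is not given here. After thinning to 2000 UMIs the fndc7a differences were -1.85 points with the mutant label and -1.55 in wild type, smaller than over both. Without the slc1a3a-rich cells the fndc7a difference over both was -1.30 points, or -1.20 after thinning. For slc1a3a carriers the unthinned differences were -0.96 points among mutant-labelled and 0.73 among wild-type cells. After thinning to 2000 UMIs both signs turned, to 0.40 and -1.25 points, so neither direction was settled. By plate the fndc7a difference was -1.23 points on plate 2, where 7.98% of 4050 genes had -2 or lower, and -2.05 on plate 4 with 6 carriers, where 16% of 2332 genes did. For slc1a3a the difference was -0.044 points on plate 2 and 0.51 on plate 4. After thinning to 2000 UMIs the difference was -2.08 points for fndc7a and -0.90 for slc1a3a, and 6.63% of 2774 genes had -2 or lower. Of those genes 5.80% lay at or below fndc7a, fewer than before thinning. For lfng the difference was -2.73 points on plate 2 and -3.57 on plate 4. Without the slc1a3a-rich cells, 4 of which carried lfng, the value over both genotypes was 0.041 points, while it was -1.02 among mutant-labelled cells, -2.38 among wild-type cells with 3 carriers, and -1.625 over both after thinning.

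The member UMIs were spread differently from the member carriers. In 40 cells pvalb8 made up less than 20% of UMIs. They were 14 of the mutant-labelled and 26 of the wild-type cells. These held 63 of the 108 slc1a3a UMIs, 33 of the 67 fndc7a UMIs and 28 of the 37 lfng UMIs. Their level in CPM (UMIs per 1000000 UMIs) stood to that of the other 142 cells as 3.75 for slc1a3a (2.51 to 5.62), 2.596 for fndc7a (1.56 to 4.32) and 8.32 for lfng (3.82 to 20.1). With pvalb8 left out of the library size these ratios were 3.34, 2.32 and 7.42. The low-pvalb8 cells differed by genotype. Low-pvalb8 over other cells, the slc1a3a ratio was 10.1 (6.07 to 17.5) among mutant-labelled cells and 1.07 (0.508 to 2.19) among wild-type cells.

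Nearly all of this excess sat in the slc1a3a-rich cells, all of which had pvalb8 under 20%. Among the other 35 low-pvalb8 cells, 9 carried slc1a3a (25.7%), against 42 of the 142 cells with more pvalb8 (29.6%). For fndc7a it was 4 (11.4%) against 22 (15.49%), and for lfng 4 (11.4%) against 9 (6.34%). The CPM ratio was 1.15 for slc1a3a (0.605 to 2.07), 0.569 for fndc7a (0.195 to 1.37) and 1.79 for lfng (0.471 to 5.95), and each interval includes 1. Since the cells set aside had the most slc1a3a and all had little pvalb8, a fall of the slc1a3a ratio was fixed by that choice, and these values describe the remaining cells only.

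The 5 slc1a3a-rich cells came from both plates. In the mutant-labelled group 4 of 92 met that bar (4.35%, 1.197 to 10.8), and in the wild-type group 1 of 90 (1.11%, 0.0281 to 6.04). Together they held 47 of 108 slc1a3a UMIs (43.5%), 27 of 67 fndc7a UMIs (40.3%) and 23 of 37 lfng UMIs (62.2%). In mutant-labelled cells they held 54.2% of slc1a3a, 48.1% of fndc7a and 65.6% of lfng UMIs, and in wild-type cells 22.2%, 13.3% and 40%. The large slc1a3a share followed from choosing the cells by that gene. Much of what was counted for fndc7a and lfng also sat in these few cells, with 17 of the 23 lfng UMIs in well 4E5.

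The mutant-labelled cell in well 4A5 held 13 slc1a3a, 1 fndc7a and 2 lfng UMIs among 7848, with pvalb8 at 17.3%. Spike-in RNA made up 12.5% of its UMIs, against a median of 3.25% over all cells. The mutant-labelled cell in well 2D2 held 9 slc1a3a, 6 fndc7a and 2 lfng UMIs among 12506, with pvalb8 at 17.3%. The mutant-labelled cell in well 2F2 held 9 slc1a3a, 5 fndc7a and no lfng UMIs among 12580, with pvalb8 at 16.9%. The pvalb8 share was alike in these 3 cells and in well 4E5. In the 3 cells and in well 2F10, all chosen by slc1a3a, slc1a3a was the most frequent of the 3 genes. The mutant-labelled cell in well 4E5 held 8 slc1a3a, 13 fndc7a and 17 lfng UMIs among 5955, with pvalb8 at 17.04%. The wild-type cell in well 2F10 held 8 slc1a3a, 2 fndc7a and 2 lfng UMIs among 11266, with pvalb8 at 11.3%. The cell in well 4E5 was the highest of all 182 for fndc7a and lfng, both in UMIs and per 10000 UMIs, and the cell in well 4A5 was the highest for slc1a3a. The emx2 gene had 0, 0, 2 and 7 UMIs in the mutant-labelled cells 4A5, 2D2, 2F2 and 4E5 and 1 UMI in the wild-type cell.

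The slc1a3a-rich cells also held genes that were low in most of the other 177 cells. These are descriptions of 5 cells chosen by their slc1a3a level, and the genes with the largest folds were picked after their values were seen. The background for each fold is that 6.33% of 4363 genes were at least 4-fold higher in the 5 cells, pooled, than in the others, and that the median fold over those genes was 0.744. The cerebellin family gene cbln20, which encodes a secreted protein with a C1q domain, stood at 4.77 to 160 UMIs per 10000 in the 5 cells, against a median of 1.66 in the others, a pooled fold of 15.51. In well 4E5 it had 95 UMIs, and without that cell the fold was 7.99. A related gene, cbln18, had a fold of 17.7, with 22 UMIs in well 4A5 and 1 in well 2F2. The matrix protein gene SPARC had a fold of 14.7 with UMIs in 4 of the 5 cells. The keratin gene krt18b had a fold of 7.91 and was even across the 5 cells, at 15 to 31.9 UMIs per 10000. In the others its median was 1.49 and its highest level 62.4.

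Genes of the epithelium were among them. The tight junction claudin gene cldnb stood at 25.2, 26.6 and 29.3 UMIs per 10000 in wells 4E5, 2F10 and 4A5. In wells 2D2 and 2F2 it had only 2 and 1 UMIs, and its pooled fold was 8.17. Among the other cells the cldnb median was 0 and the highest level 61.5, above all 5 cells. That level was in the wild-type cell of well 4F7, with pvalb8 at 12.04% and no UMI of fndc7a, slc1a3a or lfng. The adhesion molecule gene epcam was seen in all 5 cells at 9.54 to 43.7 per 10000, with a fold of 2.21. In the others its median was 6.66 and its highest level 80.8. On the 14 listed genes of other support cells that were in the table, the 5 cells held 41.1 UMIs per 10000 and the other cells 18.9. Cell by cell the list ran from 17.6 to 78.9, within the range of 0 to 96.1 in the other cells. Of the 6 list genes with at least 20 UMIs, 3 had a fold above 1, as did 36.7% of all 4363 genes. Of the 6, 2 had a fold of at least 4, and the median fold was 1.40.

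Genes that Notch activates were higher in the pooled slc1a3a-rich cells, in part through well 4E5. All 6 Notch target genes with at least 20 UMIs were at least 4-fold higher in the 5 cells, with a median fold of 9.28. Without well 4E5 it was 4 of 6 with a median fold of 5.46, beside 6.33% of 4347 genes, HEY1 being at 0.974 and her4.2 at 2.804. The near-identical copies her4.5 and her4.2, of the hairy and enhancer of split family, had folds of 8.88 and 7.41 in the 5 cells. Since such copies may share UMIs, their single values are uncertain. The 6 genes were her4.1, her4.2, her4.4, her4.5, her15.1 and HEY1. Their counts thus include her4 copies and are not counts of independent genes. The list summed to 16.6 UMIs per 10000 in the 5 cells and 2.23 in the others. The cell in well 4E5, which also held the most lfng, stood at 68.9 and well 2F2 at 1.59, within the range of 0 to 74.3 and near the median of 1.06 of the other cells. Without well 4E5 the remaining 4 cells pooled to 9.50. The Notch ligand list gave 6.78 against 4.06 per 10000, and the list of Notch receptors and modifiers, in which lfng itself is not counted, 0.199 against 0.426.

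The other family lists had smaller sums. The glutamate transport and metabolism list, without slc1a3a, gave 10.17 UMIs per 10000 in the 5 cells and 5.74 in the others, with 0 of its 5 genes of at least 20 UMIs at 4-fold. In it GLUL (ENSDARG00000099776), a glutamine synthetase gene, had a fold of 3.07. Of the fibronectin type III family, fndc7b, the paralogue of fndc7a, had 8 of its 23 UMIs in 2 of the 5 cells, wells 2F10 and 2D2, a fold of 10.98 (4.03 to 27.6).

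Hair cell RNA was still a large share in the slc1a3a-rich cells, below the median of the others. The hair cell marker list made up 1584 to 2267 of every 10000 UMIs in the 5 cells, against a median of 2924 in the others. Of its 10197 UMIs in the 5 cells, 7923 were of pvalb8 and 1855 of s100t. Of the 22 list genes with at least 20 UMIs, 5 had a fold above 1, beside 36.7% of all genes. Their median fold was 0.72, against 0.744 over all genes. The calcium-binding genes s100t and s100s had folds of 0.861 and 0.631, the hair cell transcription factor gene gfi1aa 0.413 and the calcium-binding protein gene cabp2b 0.637, beside 0.709 for pvalb8. GFP, the sorting reporter, had a fold of 0.976 (0.667 to 1.38) and was seen in all 5 cells, with 1 UMI in well 4E5. A fold of 0.5 or lower was found for 36.3% of genes. Lists of markers of other cell types went both ways in the 5 cells. The epidermis list gave 13.6 against 15.04 per 10000, the muscle list 12.2 against 15.3 and the ionocyte and mucous list 7.98 against 10.6. Of the 5 epidermis genes with at least 20 UMIs, 1 had a fold above 1, krt4 at 3.61 (2.02 to 6.08), with UMIs in all 5 cells. The leukocyte list had 0 UMIs in the 5 cells and the pigment and endothelium list 1 UMI. The neuron and glia list gave 2.39 against 0.707 per 10000, from 12 UMIs in the 5 cells, 11 of them in well 2F2. None of the erythroid symbols matched the table. Whether these wells held 1 cell with RNA of both kinds or more than 1 cell was not tested, as no doublet call was made.

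**Figure D4:**
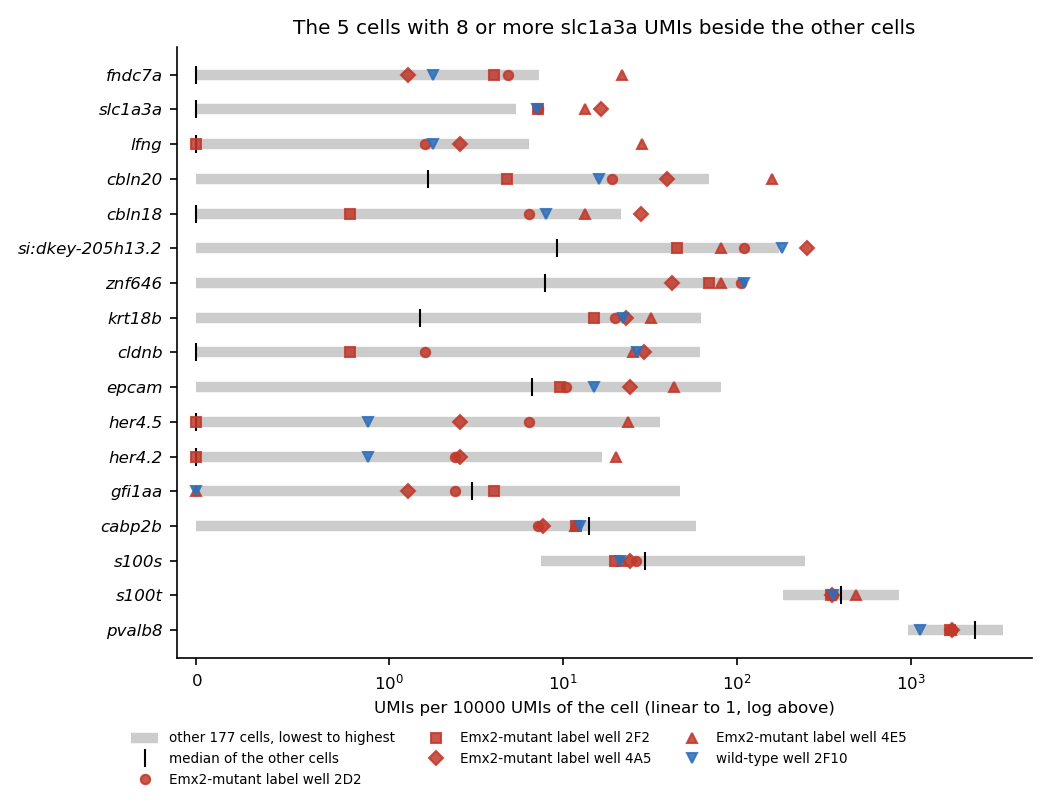
UMIs per 10000 UMIs of a cell (horizontal axis, linear to 1 and logarithmic above) for 17 genes in the 5 cells with 8 or more slc1a3a UMIs, 1 symbol per cell with colour for genotype, over grey bars from the lowest to the highest of the other 177 cells with their median as a tick. The genes fndc7a to her4.2, several of them chosen after their values were seen, lie mostly right of the ticks. The hair cell genes gfi1aa to pvalb8 lie mostly left of them, inside the grey bars. Genes not drawn went both ways. The support cell gene adcyap1b (fold 0.591) and the keratins krt5 (0.712) and krt91 (0.187) were lower in the 5 cells. The keratin krt4 (3.61) and the hair cell gene ATOH1 (1.37) were higher.

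A cell with the same accompanying genes but no member UMI was also found. This comparison was chosen after the values were seen. The genes si:dkey-205h13.2, znf646 and si:dkey-4p15.5 were high in all 5 slc1a3a-rich cells, with folds of 12.8, 8.60 and 8.84. Of the other 177 cells, 2 reached the lowest slc1a3a-rich level for all 3 of these genes. The mutant-labelled cell in well 4G2 held 2 slc1a3a and 2 lfng UMIs among 4171, with pvalb8 at 17.6%. The wild-type cell in well 4F10 held 0 UMIs of fndc7a, slc1a3a and lfng among 3586, a depth at which a count of 0 (up to 3 UMIs) allows a level of up to 8.37 per 10000. Its pvalb8 share of 9.70% was the lowest of all cells, and it held 18 cldnb, 14 epcam and 5 cbln20 UMIs. Lack of a member UMI therefore did not mean lack of these other genes.

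In the 73 carriers that were not slc1a3a-rich these genes stood much closer to the 104 cells with no member UMI. The fold of these carriers over those cells was 1.39 for cbln20, 1.53 for krt18b, 0.569 for cldnb, 0.895 for epcam, 1.25 for znf646 and 1.06 for si:dkey-205h13.2. A fold of 1.5 or more was found for 17.8% of 4192 genes, and the median fold was 1.003. The other support cell list gave 17.5 UMIs per 10000 in these carriers and 20.2 in the 104 cells, the Notch target list 2.61 and 1.90, and hair cell markers 2743 and 2804. Across all 21 cells with at least 2 members, which include the 5 slc1a3a-rich cells, the lists gave 24.7, 7.47 and 2465 per 10000.

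The genes most like each member across cells overlapped only in part. Both slc1a3a and fndc7a had znf646 and si:dkey-205h13.2, both slc1a3a and lfng had ENSDARG00000057408, and no leading gene was common to all 3 members. Likeness was the correlation of log2(UMIs per 10000 + 1) over cells, computed in each plate and averaged, and given as a description. For slc1a3a the leading genes were si:dkey-205h13.2 (r = 0.41), znf646 (0.37), si:dkey-4p15.5 (0.35), ENSDARG00000057408 (0.33) and PDIA3 (0.33), an endoplasmic reticulum disulfide isomerase gene. For fndc7a the leading genes were PSMD9 (0.38), a proteasome assembly gene, znf646 (0.35), tcta (0.33), si:dkey-205h13.2 (0.33) and krt18b (0.31). Of the slc1a3a-rich UMIs, well 4E5 held 8 of 9 for PSMD9 and 8 of 10 for tcta. For lfng they were fndc7a itself (0.42), CLSTN1 (0.40), a calsyntenin gene, her4.2 (0.34), ENSDARG00000057408 (0.34) and cbln18 (0.34). For the summed members they were si:dkey-205h13.2 (0.41), ENSDARG00000057408 (0.38), znf646 (0.38), si:dkey-4p15.5 (0.35) and ZFP36L1 (0.34), an RNA-binding protein gene. The genes slc1a3a and fndc7a had a likeness of 0.28 to each other over 182 cells and -0.020 without the slc1a3a-rich cells. As the cells set aside had the most slc1a3a and all carry fndc7a, a fall was bound to follow. All cells share library preparation and differ in depth, and such weak values in sparse counts are no finding.

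Over genotypes the summed levels were uneven. The level of fndc7a was 95.3 CPM (71.2 to 125) in mutant-labelled and 27.9 CPM (15.6 to 46.03) in wild-type cells, that of slc1a3a 132 CPM (103 to 166) and 66.98 CPM (46.9 to 92.7), and that of lfng 58.7 CPM (40.1 to 82.8) and 9.30 CPM (3.02 to 21.7). The members were chosen on this contrast, in which 45% of 6288 genes were higher in mutant-labelled cells, 8.73% with an interval above 1 and 12.1% by a ratio of at least 2, or 7.81% where also higher on each plate. On plate 4 fndc7a had 17 UMIs in mutant-labelled cells, of which 13 came from well 4E5, and 1 UMI in wild-type cells. On the same plate lfng had 25 UMIs in mutant-labelled cells, of which 17 came from that well, and 1 UMI in wild-type cells. The size of the plate 4 ratio of both genes therefore hangs on that cell and on 1 wild-type UMI. Without the slc1a3a-rich cells plate 4 had 3 and 1 fndc7a UMIs (ratio 3.39, 0.273 to 178). For lfng it had 6 and 1 UMIs (ratio 6.79, 0.823 to 312).

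Without the 5 slc1a3a-rich cells the mutant-labelled over wild-type ratio was 2.16 for fndc7a (1.08 to 4.56, from 27 and 13 UMIs), 1.23 for slc1a3a (0.718 to 2.10, from 33 and 28) and 3.81 for lfng (1.01 to 21.3, from 11 and 3). With all cells it was 3.42, 1.97 and 6.31. The fall of the slc1a3a ratio follows from the choice of cells, as 4 of the 5 with the most slc1a3a are mutant-labelled, and is not set against the other genes. The fndc7a and lfng ratios, of genes chosen on this contrast, stayed above 1, with intervals that reach close to 1. On plate 2 without the 5 cells they were 1.996 (0.96 to 4.38) and 2.495 (0.408 to 26.2). These intervals include 1, as do those of plate 4 above. In cells with pvalb8 of at least 20%, 78 mutant-labelled and 64 wild-type cells, fndc7a had 26 and 8 UMIs (ratio 2.43, 1.07 to 6.22), slc1a3a 23 and 22 (0.783, 0.417 to 1.47) and lfng 7 and 2 (2.62, 0.499 to 25.9). The cells with less pvalb8 were 14 mutant-labelled and 26 wild-type cells. Their ratios were 7.86 (3.32 to 21.4), 7.40 (4.02 to 14.5) and 17.6 (5.38 to 91.2). Of the mutant-labelled UMIs in these cells, the 4 slc1a3a-rich cells held 25 of 26 for fndc7a, 39 of 49 for slc1a3a and 21 of 25 for lfng. Animal, clutch and genotype cannot be told apart in these ratios.

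**Figure D5:**
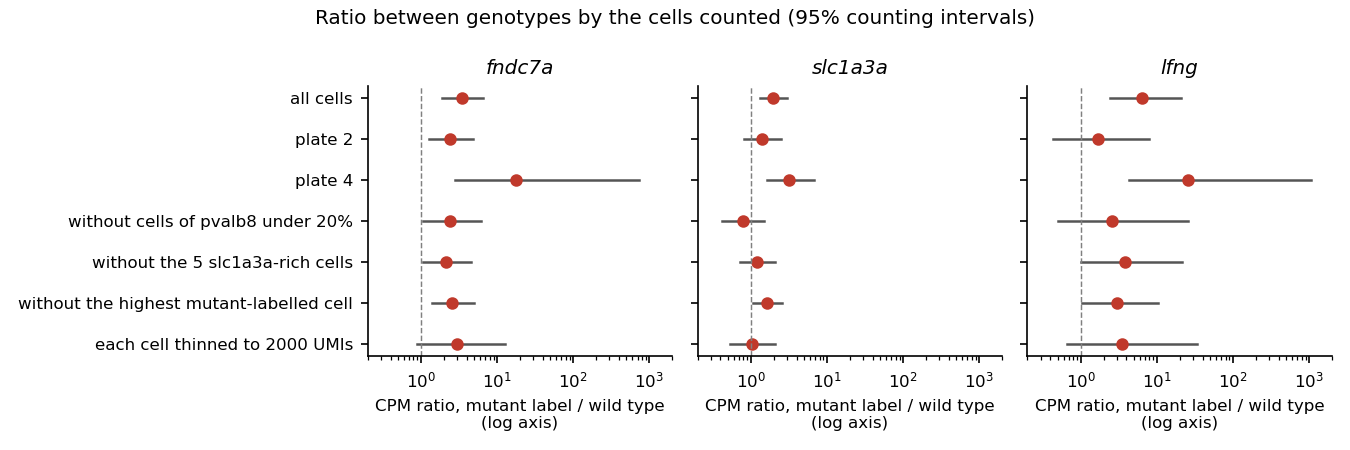
Ratio of CPM in mutant-labelled over wild-type cells (horizontal axes, logarithmic) for fndc7a, slc1a3a and lfng, by the cells counted (rows), with exact 95% counting intervals as lines and a dashed line at 1. The slc1a3a ratio moves from 1.97 with all cells to 0.783 (0.417 to 1.47) without cells of pvalb8 under 20%, which leaves out all 5 slc1a3a-rich cells. The fndc7a and lfng points, of genes chosen on this contrast, lie above 1 in every row. The lfng intervals include 1 on plate 2, without cells of pvalb8 under 20% and after thinning. The fndc7a interval includes 1 after thinning.

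The lists around the members went both ways between genotypes over all cells. Their median log2 ratio is set beside -0.05 for all 6288 genes with at least 10 UMIs, of which 45% were higher in mutant-labelled cells. Of 8 measured Notch targets, her4 copies that may share UMIs among them, 6 were higher and 2 lower (median 0.71). The list was led by her4.5 with 64 mutant-labelled and 19 wild-type UMIs. Of these 83 UMIs 25 were in the slc1a3a-rich cells, and without those cells the list's median was 0.22. All 4 measured Notch ligands were higher (median 0.20, or 0.04 without those cells), among them DLD with 127 and 123 UMIs, and both measured Notch receptors and modifiers were lower (-0.61, from 23 and 22 UMIs for the whole list). Of 7 measured glutamate genes 5 were higher (0.23), and of 2 measured fibronectin type III genes 1 was (-0.14). Of 7 other support cell genes 2 were higher and 5 lower (-0.23), and of 25 hair cell markers 12 were higher and 13 lower (-0.01). The young hair cell and progenitor list had 2 higher and 3 lower (-0.34), epidermis 2 and 5 (-0.64), muscle 7 and 6 (0.36), neuron and glia 2 and 1 (0.25), and ionocyte and mucous 1 and 1 (0.52).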

How the data were processed

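The deposited table holds UMI counts per gene and cell for 184 cells, which the authors made from mcSCRB-seq libraries, per the labels. STAR 2.6.0a and the build GRCz11 are named in, and stated here per, the submitters' processing notes. What program counted the UMIs, and against which annotation, is not given in the sources used here. Columns were matched to cells by barcode. The 54 spike-in rows (5.15% of UMIs) stayed out of library sizes, and 182 cells with at least 1000 UMIs were kept. Symbols came from a supplied table that named 11707 of 12354 gene identifiers. It gives FNDC7, SLC1A3 and LFNG, and the zebrafish names used here came with the identifiers. The genes and lists were chosen with earlier results of these data known.

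Counts were summed per genotype (Python 3.11.15, scipy 1.17.1) and given as CPM with exact Poisson 95% intervals, ratios with exact conditional intervals, and shares with Clopper-Pearson intervals. All cover counting error only, and no genotype test was made with 1 sample per genotype. Cells were thinned to 2000 UMIs with a fixed seed. Alternatives included scaling by edgeR 4.0.16 and DESeq2 1.42.0 on the summed counts, other UMI minimums and thinning depths, single plates, and cell subsets. Genes named in the text are the members, the 5 genes most like each member and their sum, pvalb8, emx2, GFP, and the most abundant or most different genes of each list. SPARC, cbln20 and the list folds in slc1a3a-rich cells were chosen after their values were seen. The steps were tested on simulated counts.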

Additional observations from a re-analysis of the deposited data

How the results depend on the processing

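The ratios of mutant-labelled over wild-type cells ranged over the main value and 14 alternatives from 2.16 to 17.7 for fndc7a, 0.783 to 3.21 for slc1a3a and 1.68 to 25.98 for lfng. Plate 4 alone gave 17.7, 3.21 and 25.98, and plate 2 alone gave 1.68 for lfng. For slc1a3a the ratio was 0.783 (0.417 to 1.47) without cells of pvalb8 under 20%, an interval that includes 1. That cut takes out all 5 slc1a3a-rich cells, 4 of them mutant-labelled, so part of the fall follows from the choice of cells. The slc1a3a ratio was 1.04 (0.527 to 2.06) after 1 random thinning, while the mean of per-cell CPM gave 1.685. Without the slc1a3a-rich cells, a choice made after seeing the data, it was 1.23. Other scaling, UMI minimums and spike-in limits moved no ratio beyond its interval. Shares of carriers follow depth. Without thinning they were 23.9% for fndc7a, 32.6% for slc1a3a and 14.1% for lfng in the mutant-labelled group, and 28.9% for slc1a3a in the wild-type group. At 5000 UMIs they were 30%, 26% and 14% in the mutant-labelled group. At 1000 UMIs slc1a3a had 8.70% there and 2.22% in the wild type. Cells with at least 2 members made up 11.5%, but 4.396% when 2 UMIs of each were asked for and 3.96% after thinning. Of 129 recomputed values 111 were counted as kept, including all 24 for the pvalb8 share and all 36 for the lists. For the smallest lists the interval ran from the lowest to the highest gene, so keeping within it says little. The count of Notch targets at 4-fold, which went from 6 to 4, had no interval. The lfng difference in pvalb8 share went from -2.99 to 0.041 points without the slc1a3a-rich cells, inside a wide interval of -6.30 to 0.349. The cause of these moves was not tested. No paired analysis was possible because no test was made and the labels number wells, not replicates. With 37 lfng UMIs, and 1 UMI each of fndc7a and lfng in wild-type cells of plate 4, differences within a plate are at the limit of this depth.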
